A study of Mus musculus with 2 samples.

Results

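The genes described here are 31 enzymes, secreted proteins and regulators of the pancreatic acinar cell, followed in islets of wild-type mice and of mice lacking PERK at an age of 2 days. They were taken by gene symbol from a list of known acinar genes, and that list was drawn up with earlier results of these data known. Of the 31 genes, 29 had at least 1 probe set annotated to that gene alone, out of 12394 genes named in this way on the array. Gene signals were read from the brightest probe set of each gene, and 27 of the 29 were above a floor of 39.8 intensity units on both arrays, against 8134 genes in the whole data set. Dnase1 and Rbpjl were under the floor on both arrays, and Pnlip and Try4 had no probe set of their own. These 27 are called measured below.

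Acinar cells make up most of the pancreas and surround the islets of endocrine cells. They fill zymogen granules with inactive digestive enzymes, release them into the ducts, and keep inhibitors in the same granules that hold stray trypsin in check. A small set of transcription factors, with PTF1A at its centre, holds this programme in place. PERK, the product of Eif2ak3, sits in the membrane of the endoplasmic reticulum and slows translation when unfolded protein builds up. Mice without it are known to lose both insulin-producing beta cells and acinar cells after birth.

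The study compared 1 wild-type array with 1 PERK knockout array (Affymetrix mouse 430A), both made from islets released with collagenase P. Strains and gender are labelled as mixed for the wild type and are unlabelled for the knockout. The form of the knockout allele and any pooling of pups are unstated in the sources used here. With 1 array per genotype, no difference below has a replicate check and no p-value was computed. The signal of Eif2ak3, the targeted gene, went from 117.7 to 58.7 between wild type and knockout. In the whole data set, 4.19% of measured genes were at least 1.5-fold higher and 2.95% at least 1.5-fold lower in the knockout, while 0.516% were at least 2-fold higher and 0.652% at least 2-fold lower. A positive log2 ratio was found for 54.9% of measured genes, with a median of 0.03. Between pairs of probe sets for the same gene, the log2 ratio varied with an SD of 0.26 per probe set (2599 genes), which is the only error these arrays hold. Genes were also classed by the signal of their brightest probe set, while the second could be dimmer. By this brightness, the SD was 0.18 above 50% of the array maximum (13 genes), 0.13 between 25% and 50% (58 genes), 0.19 between 6.25% and 25% (549 genes) and 0.28 below (1979 genes). It covers probes and hybridisation, not animals, litters or preparations.

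The label of islets was set against defining genes. The hormone genes of the islet were bright on both arrays, with Ins2 and Gcg named for this check. Ins2 went from 5652 to 6163 between wild type and knockout, and Gcg from 5662 to 5718. Acinar genes were also bright on both arrays. Of the 27 measured members, 7 had signals above 50% of the array maximum, among only 37 such genes in the data set. In these bulk samples, a different number of acinar cells and a different amount of RNA per acinar cell cannot be told apart.

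Most measured acinar genes had signals within 1.5-fold between the 2 arrays, and the 4 that stood at least 1.5-fold apart were all higher in the knockout. They were Serpini2 (1.93-fold), a serpin of the pancreas, Pla2g1b (1.90-fold), the secreted phospholipase A2, Ctrl (1.61-fold), a chymotrypsin-like protease, and Zg16 (1.59-fold), a lectin of the zymogen granule. No measured member was 1.5-fold lower, against 2.95% of all measured genes. On the brightest probe set none was 2-fold apart, against 0.516% of all measured genes higher and 0.652% lower. These 4 of 27 stand beside a background of 341 of 8134 genes at least 1.5-fold higher. The lowest ratio was that of Ctrc (1.36-fold lower), a chymotrypsin. The median log2 ratio was 0.08 over the 27 genes and 0.03 over all measured genes. Above 0 were 18 of 27 members and 54.9% of all measured genes. With the arrays centred on their medians, 13 of 27 members and 40.7% of all measured genes were above 0, and the members' median was -0.02.

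**Figure D1:**
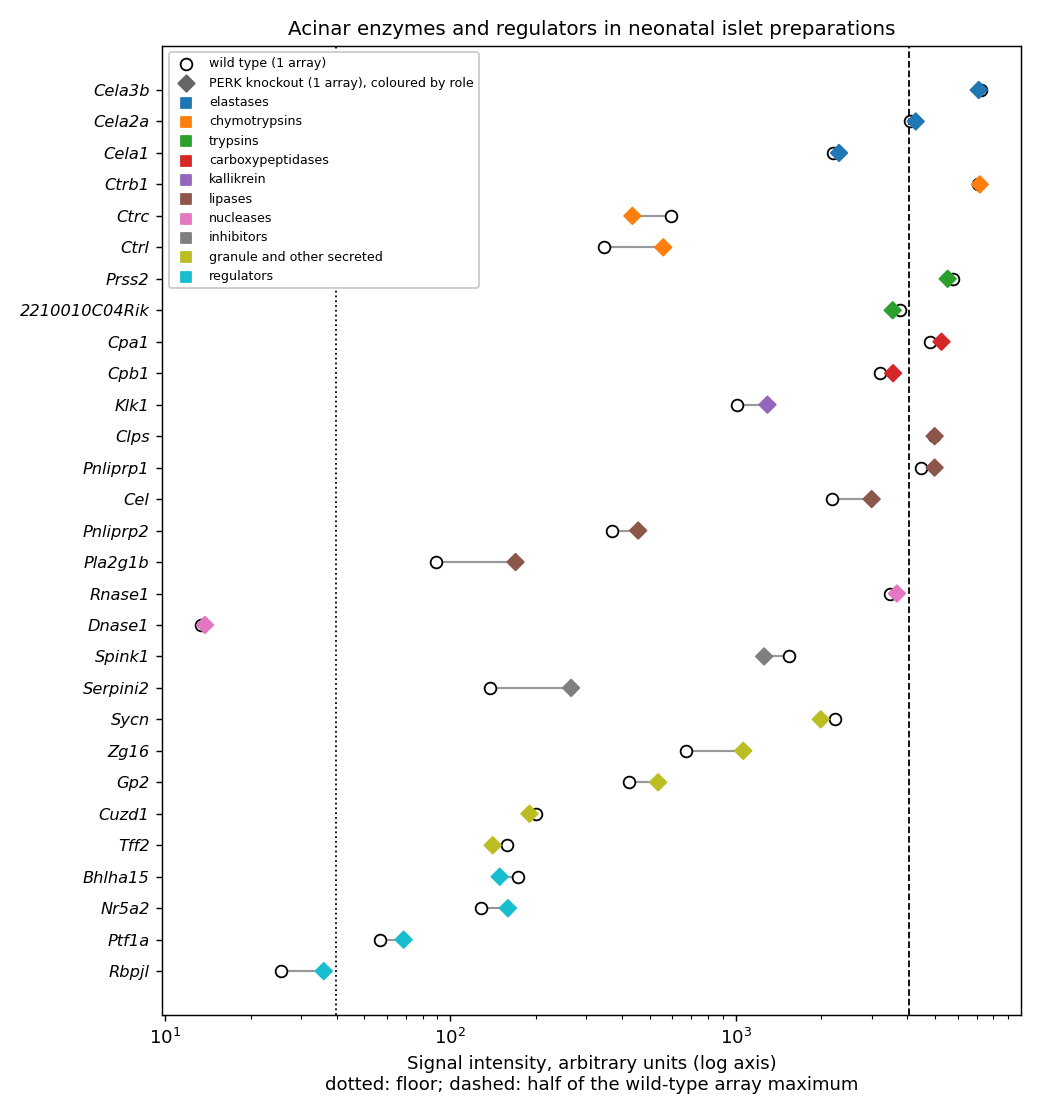
Signal of each of the 29 genes with a probe set of its own (horizontal log axis, arbitrary intensity units) on the wild-type array (open circles) and the knockout array (diamonds, coloured by role), with no error bars because there is 1 array per genotype. Serpini2, Pla2g1b, Ctrl and Zg16 show the widest shifts towards higher knockout signal, Ctrc the widest in the other direction, and Dnase1 and Rbpjl lie left of the floor of 39.8.

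The stretch of DNA before the start of acinar genes is where PTF1 and its partners are known to act. PTF1 joins PTF1A and a partner on an E-box (CANNTG) with RBPJ or RBPJL on a second element (TTCCCA). RefSeq promoter sequences (GRCm38.p6) were found for 26 of the 31 genes, without Clps, Ctrc, Spink1, Tff2 and Zg16. The 250 bases before the start are shown for 6 members with an entry, namely the 3 that were at least 1.5-fold higher and, among those above 50% of the maximum, the 3 with the ratio nearest 0. This sets genes beyond 1.5-fold beside bright genes with near-equal signals. Each runs 5′ to 3′ on the strand of its gene, and capitals mark CANNTG and TTCCCA on either strand (TGGGAA is TTCCCA on the other strand). The positions, in order, are chr3:75270079-75270328 (minus strand) for Serpini2, chr5:115465892-115466141 (plus strand) for Pla2g1b, chr8:105933863-105934112 (minus strand) for Ctrl, chr8:111691011-111691260 (minus strand) for Ctrb1, chr4:137430521-137430770 (minus strand) for Cela3b and chr6:41521526-41521775 (plus strand) for Prss2.
Serpini2: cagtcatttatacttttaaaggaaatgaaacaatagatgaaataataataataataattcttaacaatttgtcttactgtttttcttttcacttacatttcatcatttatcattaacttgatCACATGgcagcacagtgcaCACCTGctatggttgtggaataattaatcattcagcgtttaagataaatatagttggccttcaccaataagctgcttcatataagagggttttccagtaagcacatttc
Pla2g1b: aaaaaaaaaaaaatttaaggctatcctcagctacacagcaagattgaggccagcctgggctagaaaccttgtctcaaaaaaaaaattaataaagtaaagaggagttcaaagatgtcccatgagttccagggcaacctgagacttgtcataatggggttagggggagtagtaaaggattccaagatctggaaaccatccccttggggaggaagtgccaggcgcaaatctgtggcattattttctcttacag
Ctrl: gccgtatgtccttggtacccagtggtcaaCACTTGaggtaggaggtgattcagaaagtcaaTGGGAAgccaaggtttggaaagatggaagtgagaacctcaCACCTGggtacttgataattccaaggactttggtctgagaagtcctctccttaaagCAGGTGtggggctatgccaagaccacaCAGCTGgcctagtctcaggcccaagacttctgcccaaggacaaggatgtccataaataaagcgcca
Ctrb1: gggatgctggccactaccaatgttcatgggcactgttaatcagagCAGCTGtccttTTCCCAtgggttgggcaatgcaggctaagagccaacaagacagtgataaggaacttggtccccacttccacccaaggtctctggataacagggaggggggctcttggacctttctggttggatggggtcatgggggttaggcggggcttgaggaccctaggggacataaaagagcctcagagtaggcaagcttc
Cela3b: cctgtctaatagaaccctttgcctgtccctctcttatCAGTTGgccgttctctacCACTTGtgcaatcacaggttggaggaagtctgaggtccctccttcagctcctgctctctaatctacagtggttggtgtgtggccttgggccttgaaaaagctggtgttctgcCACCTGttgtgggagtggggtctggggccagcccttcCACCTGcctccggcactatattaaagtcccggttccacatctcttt
Prss2: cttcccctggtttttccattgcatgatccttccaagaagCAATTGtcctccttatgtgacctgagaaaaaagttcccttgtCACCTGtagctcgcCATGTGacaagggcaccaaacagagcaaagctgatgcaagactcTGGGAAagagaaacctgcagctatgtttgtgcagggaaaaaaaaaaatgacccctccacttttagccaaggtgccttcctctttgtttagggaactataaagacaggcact

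Among these 6, the E-box letters were in the windows of Serpini2, Ctrl, Ctrb1, Cela3b and Prss2, and neither motif was in that of Pla2g1b. Both were present before Ctrl, Ctrb1 and Prss2. Of the 26 members with an entry, 21 held CANNTG, a motif found in 66.2% of all 32851 promoters of the same length, and 15 held TTCCCA, found in 21.6%. Both occurred together in 11 of 26 members and in 14.8% of all promoters. The 26 members have 28 promoters. A member was counted if any of its promoters matched, while the shares over all promoters count each promoter separately. The motifs may lie anywhere in the window and can share up to 2 letters where they meet. In Ctrb1 the E-box is followed by TTCCCA after 5 bases. This spacing, searched for after the sequence was seen, occurred in 2 members, Ctrb1 and Rbpjl, and in 0.103% of all promoters. The letters AAGGTCA, bound by NR5A2, were found in Cel, Cela1 and Klk1 and in 4.08% of all promoters. CATATG, an E-box known for MIST1 and a special case of CANNTG, was in none of the 26 windows and in 3.46% of all promoters. A match describes letters only and marks no binding site.

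The elastases were level. Cela3b had wild-type and knockout signals of 7279 and 7119, a log2 ratio of -0.03. Cela2a went from 4089.6 to 4280.3 and Cela1 from 2193 to 2305, both at 0.07. All 3 ratios were smaller than the probe set error at their brightness. The other 3 probe sets of Cela3b gave log2 ratios of -0.13, -0.14 and -0.08. A probe set shared by Cela3a and Cela3b, which cannot be assigned to either gene, went from 6684 to 6485.

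Chymotrypsins went different ways. Ctrb1, the major chymotrypsinogen, was level at 7076 and 7178. Ctrl went from 345.9 in the wild type to 557.7 in the knockout, a log2 ratio of 0.69. Ctrc, whose product is known to regulate the activation of other zymogens, went from 591.5 to 434.8, a log2 ratio of -0.44. Ctrl and Ctrc each had 1 probe set, so no second reading of either ratio was available. The RefSeq table of GRCm38.p6 lists Ctrc as a transcribed pseudogene in the reference strain.

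No trypsinogen was beyond 1.5-fold on any of its probe sets. Prss2, anionic trypsinogen and the activator of the other zymogens once it is cut in the gut, went from 5770 to 5541 (log2 -0.06). Its other 3 probe sets gave -0.05, -0.02 and 0.08, and it was the only member with probe sets on both sides of 0. The trypsinogen-like gene 2210010C04Rik went from 3759 to 3555 (log2 -0.08) on its brightest probe set. Its second went from 3667 to 3111 (log2 -0.24), and its dimmest from 320.2 to 239.9 (log2 -0.42). The ratio of this gene thus moved away from 0 as the probe set became dimmer. A probe set shared by Try4 and Try5 went from 4146 to 3905 and cannot be assigned to either gene. Trypsinogen genes are close copies of each other, so their probe sets may read each other's transcripts.

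Carboxypeptidases, which trim residues from the end of a peptide, and the kallikrein gene had positive ratios, none of them beyond 1.5-fold. Cpa1 went from 4800.0 to 5271 (log2 0.14) and Cpb1 from 3218 to 3566 (log2 0.15). The ratio of Cpa1 was under the probe set error of 0.18 at its brightness, and that of Cpb1 was just over the 0.13 at its own. Klk1, tissue kallikrein, which releases kinins, went from 1009 to 1294 (log2 0.36). Its other 2 probe sets gave 0.39 and 0.44, so all 3 probe sets lay within 0.08 of each other, above the probe set error of 0.19 at this brightness. Kallikrein genes form a large family of close copies, so these probe sets may read relatives of Klk1 as well.

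All 5 measured genes of fat digestion had a positive log2 ratio, as did 54.9% of all measured genes. The 5 ran from 0.01 to 0.92 with a median of 0.31, though Clps kept its sign in only 7 of 10 alternative settings. Clps, colipase, which anchors lipase to fat droplets, was level at 4944 and 4987. Pnliprp1, a lipase relative with little activity of its own, went from 4468 to 4985 (log2 0.16). Both lay above 50% of the array maximum.

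The dimmer lipase genes had larger ratios. Cel, the bile salt-dependent lipase, went from 2174 to 2999 (log2 0.46). Pnliprp2, a lipase that also cuts galactolipids and phospholipids, went from 368.2 to 455.6 (log2 0.31), with 0.52 on its other probe set (174.5 to 250.0). Pla2g1b, which frees fatty acids from phospholipids, went from 89.2 to 169.3 (log2 0.92), and its second measured probe set from 76.6 to 135.5 (log2 0.82). Its other 2 probe sets were under the floor on both arrays, at 3.6 and 3.4 in the wild type. The 2 measured readings of Pla2g1b thus lay 0.10 apart, both beyond 1.5-fold, and the brighter one was at 1.10% and 2.05% of the array maximum. The brighter probe set is of the _x_at type, whose probes can match other transcripts, and the second measured probe set is not.

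Of the nucleases, Rnase1, the secreted pancreatic ribonuclease, was level at 3490 and 3678 (log2 0.08). Dnase1 was under the floor at 13.4 and 13.8 and has no ratio. The inhibitors went opposite ways. Spink1, the trypsin inhibitor stored with trypsinogen, went from 1540.1 to 1259 (log2 -0.29). Serpini2 went from 137.3 to 265.1 (log2 0.95), the largest ratio of all members. Each inhibitor had 1 probe set, and that of Serpini2 is of the _s_at type, whose probes can match more than 1 transcript.

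Granule and other secreted proteins were mixed as well, with 2 of 5 above 0 and a median of -0.08. Zg16, which lines the inside of the granule membrane, went from 668.4 to 1064 (log2 0.67). Its second probe set went from 620.7 to 908.4 (log2 0.55) and its dimmest from 198.0 to 574.7 (log2 1.54). All 3 were higher in the knockout, yet they spanned 0.99 on the log2 scale, the widest range of any member, and the size of the difference depends on the probe set read. The brightest is of the _s_at type and the second of the _x_at type, whose probes can match other transcripts. The dimmest, with the largest ratio, is of neither type. With median centring the log2 ratio of Zg16 was 0.57, just under 1.5-fold. Gp2, the main glycoprotein anchored in the granule membrane, went from 424.6 to 535.0 (log2 0.33). Sycn, syncollin, a granule protein, went from 2230.4 to 1989 (log2 -0.17), with -0.04 on its other probe set. Cuzd1, another granule membrane protein, was at 199.9 and 189.4 (log2 -0.08), and Tff2, a trefoil peptide that coats mucosa, at 158.6 and 140.8 (log2 -0.17). Zg16 alone of these 5 was beyond 1.5-fold.

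The regulators were dim and none was 1.5-fold apart on its brightest probe set. Ptf1a went from 56.5 to 68.6 (log2 0.28), close to the floor. Nr5a2 (LRH-1), a nuclear receptor that drives acinar enzyme genes, went from 127.9 to 159.2 (log2 0.32). Its second probe set went from 78.5 to 121.1 (log2 0.63), and its other 2 were under the floor in the wild type. Bhlha15 (MIST1), which shapes the secretory architecture of the cell, went from 172.3 to 149.0 (log2 -0.21), with its other probe set under the floor. Rbpjl, the acinar form of the RBPJ subunit, had signals of 25.5 and 36.0, both under the floor, so no ratio is given.

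**Figure D2:**
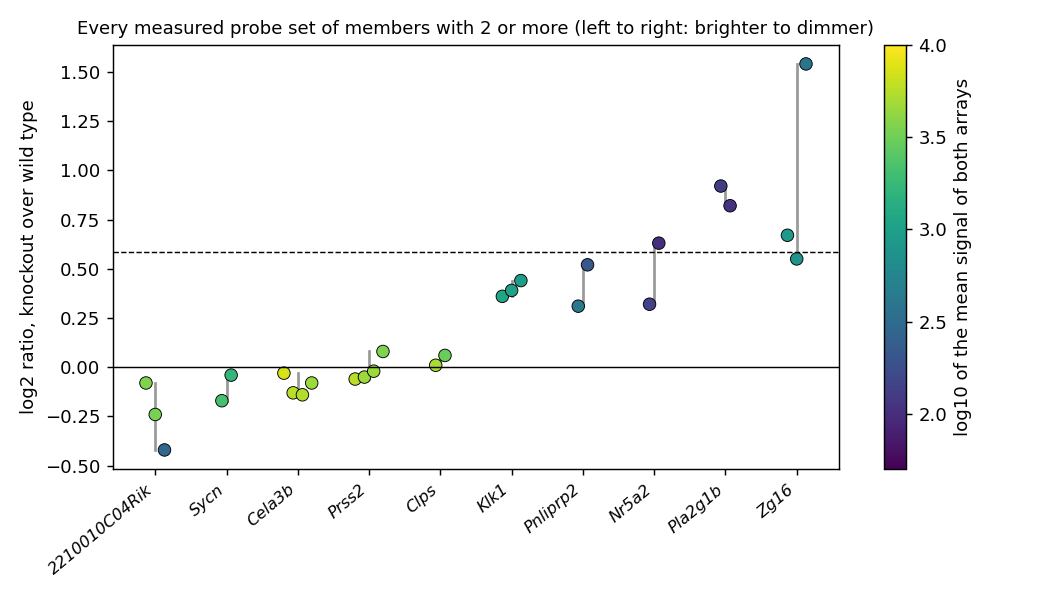
The log2 ratio of knockout over wild type (vertical axis) for every measured probe set of the 10 members with 2 or more, ordered from brighter to dimmer within a gene and coloured by log10 of the mean signal. In 9 of the 10 members all probe sets lie on the same side of 0, Prss2 being the exception, and the dimmest probe set of Zg16 stands apart at 1.54. Among the probe sets of Zg16, only this is of neither the _s_at nor the _x_at type.

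Probe sets of the same member mostly pointed the same way. Of 10 members with 2 or more measured probe sets, 9 had them all in 1 direction, as did 53.4% of all 2599 such genes. The members differ in how many probe sets they have, from 2 to 4. The range within a member was 0.05 for Clps, 0.08 for Klk1, 0.10 for Pla2g1b, 0.11 for Cela3b, 0.13 for Sycn and 0.14 for Prss2. It was wider for Pnliprp2 (0.21), Nr5a2 (0.31), 2210010C04Rik (0.34) and Zg16 (0.99).

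The size of the ratios went with the brightness of the probe sets. The 7 members above 50% of the maximum on both arrays (Cela2a, Cela3b, Cpa1, Ctrb1, Pnliprp1, Prss2 and Clps) had log2 ratios from -0.06 to 0.16 with a median of 0.02. The 20 below that limit ran from -0.44 to 0.95 with a median of 0.21, and all 4 members beyond 1.5-fold were among them. Just inside the limit was Cela2a, at 50.3% and 51.9% of the maximum (log2 0.07). Just outside it was 2210010C04Rik, at 46.2% and 43.1% (log2 -0.08).

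The same narrowing was seen in genes that are no acinar members. Over the 30 other genes above 50% of the maximum, log2 ratios had an SD of 0.10 and ran from -0.17 to 0.26, with 0 of 30 being 1.5-fold apart. The SD was 0.18 over the 99 other genes between 25% and 50%, 0.23 over 970 between 6.25% and 25%, and 0.34 over 7008 below 6.25%. Beyond 1.5-fold were 2.06% of the other genes between 6.25% and 25% and 7.95% of the dimmest. The members' own SD was 0.08 in the brightest class (7 genes), 0.20 in the next (5 genes), 0.45 in the one below (4 genes) and 0.46 in the dimmest (11 genes). Signals near the top of the range can be compressed. The part of compression in the level ratios of the bright enzymes was not tested.

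**Figure D3:**
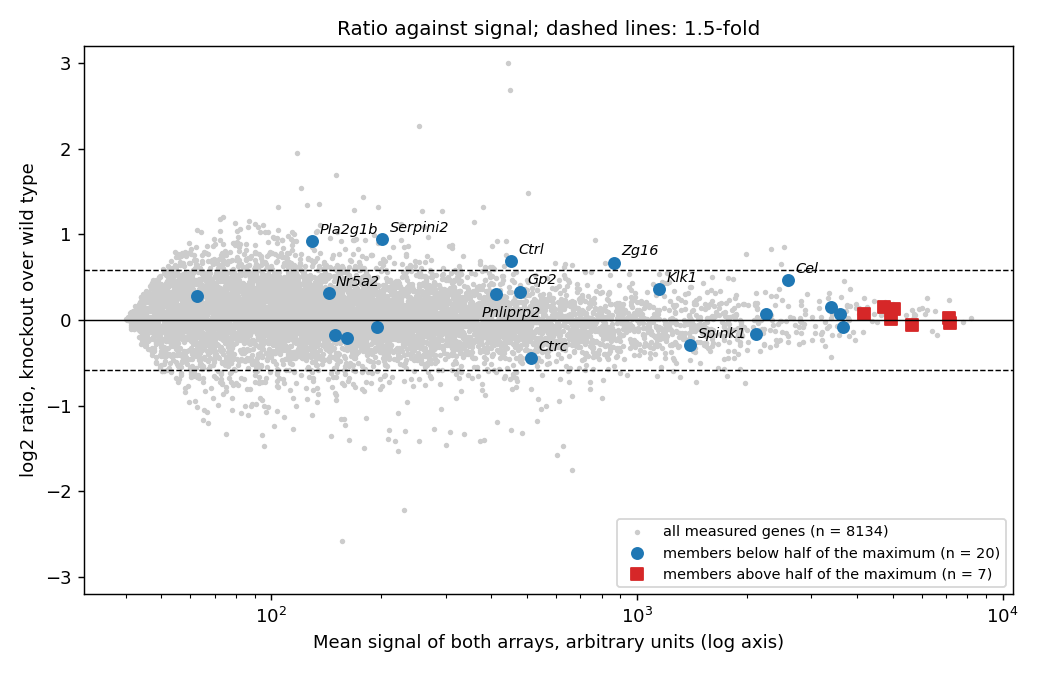
The log2 ratio of knockout over wild type against the mean signal of both arrays (log axis, arbitrary intensity units) for all 8134 measured genes (grey), the 20 members below 50% of the array maximum (blue circles) and the 7 above it (red squares). The red squares lie between -0.06 and 0.16, where grey points are also close to 0, and the members beyond the 1.5-fold lines are Serpini2, Pla2g1b, Ctrl and Zg16.

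Other genes of the acinar cell were read from a second list of 42, of which 29 had a probe set of their own and 21 were measured. Their median log2 ratio was 0.02, with 13 above 0, 3 at least 1.5-fold higher and 0 lower. Over all measured genes these shares were 54.9%, 4.19% and 2.95%. The 3 were Reg2 (75.6 to 193.8, log2 1.36), Reg3d (60.3 to 129.8, log2 1.11) and Reg1 (1799 to 3239.7, log2 0.85), secreted proteins of the Reg family. Prss3, a trypsinogen and the brightest of this list with Reg1, was level at 2769 and 2806. Outside the Reg family the measured genes of the list lay within 1.5-fold.

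Markers of other cells were read beside these values. Of 11 measured duct genes, the median was 0.01, with Tspan8 (log2 1.09) and Car2 (log2 0.98) at least 1.5-fold higher and the keratins Krt8 and Krt18 at 0.00 and 0.18. Other measured probe sets of Tspan8 gave 0.57, just under 1.5-fold, and 0.65. Of 17 measured islet genes, the median was -0.13, with Ghrl at 0.78, Pcsk1 at -1.47, Slc2a2 at -0.89 and G6pc2 at -0.73 beyond 1.5-fold and the brightest, Ttr and Ppy, at 0.02 and 0.23. The 12 stellate and mesenchymal genes had a median of -0.02, with Acta2 at -0.60 and the brightest, Sparc and Vim, at -0.02 and -0.01.

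Immune genes had the highest median of these lists. On the brightest probe set, all 16 measured of 18 were above 0, against 54.9% of all measured genes. The median of the 16 was 0.79, and 12 were at least 1.5-fold higher, against 4.19% of all measured genes. S100a8 (98.9 to 788.8), S100a9 (120.8 to 778.3), Ngp, Lcn2, Lyz1, Lyz2, C1qa, C1qb, Cd74, H2-Aa, Tyrobp and Laptm5 made up the 12. Other measured probe sets gave log2 ratios of -0.08 and -0.01 for Csf1r and 0.32 for Lyz1. They gave 0.88 and 0.10 for C1qb, 0.69 for H2-Aa and 0.38 for Laptm5. The summed signal of the measured immune genes went from 1939 to 4693 between wild type and knockout, and that of the duct genes from 7247 to 8103. That of the other acinar genes went from 13854 to 15332, of the islet genes from 69328 to 69357. For the stellate and mesenchymal genes the summed signal went from 13453 to 12667. Over the 20 acinar members below 50% of the maximum it went from 22955 to 24832. The other 2 immune genes, Ptprc (29.9 to 57.4) and C1qc (37.8 to 107.4), were under the floor in the wild type and above it in the knockout. The duct gene Cftr was under the floor on both arrays. The part of immune or duct cells in the ratios of Serpini2, Pla2g1b, Ctrl and Zg16 was not tested.

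**Figure D4:**
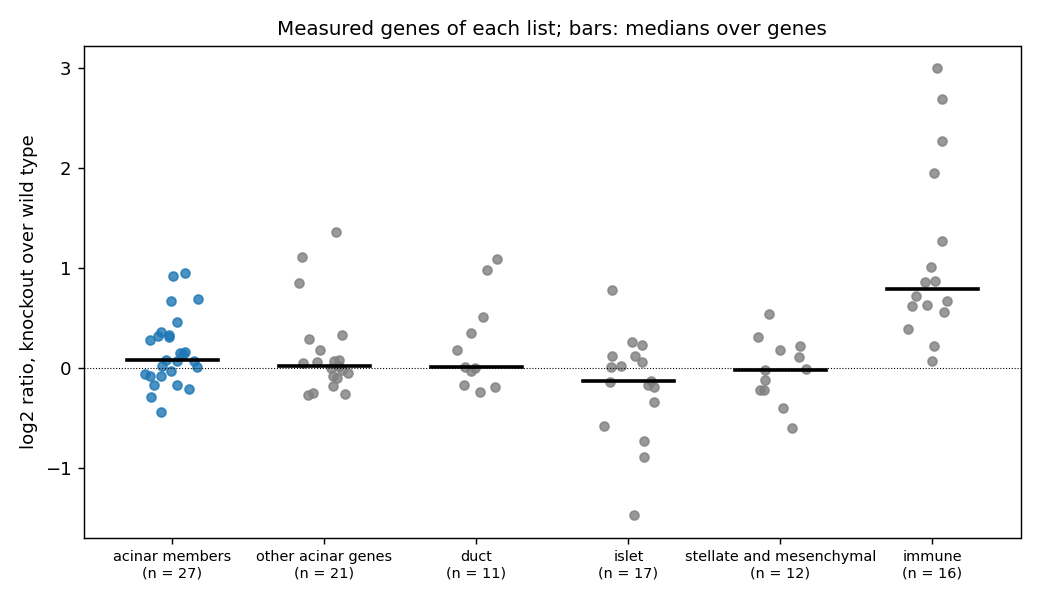
The log2 ratio of knockout over wild type (vertical axis) of each measured gene in the 27 acinar members and in the lists of other acinar, duct, islet, stellate and mesenchymal, and immune genes, with a bar at the median over genes, which are not replicates. The acinar members centre on 0.08, the other acinar genes on 0.02 and the immune genes on 0.79.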

How the data were processed

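RNA of 1 wild-type and 1 PERK knockout islet preparation was measured on 2 arrays. The authors deposited a linear signal intensity for 22690 probe sets, with GCOS 1.02 per the submitters' processing notes. The sources used here do not state how background was corrected or probes were summarised. The 2% trimmed mean of the deposited intensities was 150.1 on both arrays, and the knockout array was set to that of the wild type (factor 1.0000). A floor was set at the 40th percentile of all signals (39.8) before log2 knockout over wild type was taken. Of the probe sets, 20393 had 1 gene symbol in the platform annotation, 691 had several and 1606 had none. The brightest probe set by mean signal stood for a gene. Sizes of 1.5-fold and 2-fold were limits for counts. Protein sequences were not analysed here. The precision of every value is limited by the number of arrays.

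The members and all lists were chosen with earlier results of these data known. Named genes are all members, and from each other list those at least 1.5-fold apart and the 2 brightest. Ins2, Gcg, Ptprc, C1qc, Csf1r, Cftr and the genes of the wider acinar list at or near the floor were named after their values were seen. Alternatives were 4 scalings, 2 floors, a pseudocount, 3 choices of probe set and 2 limits of brightness. The code was tested on simulated data and run in Python 3.11.15 with numpy 2.4.6, pandas 2.3.3, scipy 1.17.1 and statsmodels 0.14.6.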

Additional observations from a re-analysis of the deposited data

How the results depend on the processing

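The median log2 ratio of all measured members (0.08) became -0.02 with median centring, which moved the median of all genes by -0.10, 0.21 when members above 50% of the maximum on either array were left out, and 0.23 on the second brightest probe set. The median of members below 50% of the maximum (0.21) became 0.12 with median centring, with quantile normalization and without _x_at and _s_at probe sets, 0.11 with the floor at the 60th percentile, 0.45 on the second brightest probe set and 0.31 with the limit at 25%. The second brightest probe set measured only 10 members, of which 6 were above 0 and 2 at least 1.5-fold higher. Without _x_at and _s_at probe sets, 1 member, Zg16, was at least 2-fold higher (log2 1.54), while Serpini2 was not measured. With the floor at the 60th percentile, Pla2g1b and Ptf1a were not measured. At that floor 3 of 25 members were at least 1.5-fold higher, against 2.39% of all measured genes. Many alternatives leave a given gene as it was, so only those that moved its log2 ratio by at least 0.01 are counted. By that count Serpini2 was beyond 1.5-fold in 4 of 4, Ctrl in 4 of 4, Pla2g1b in 7 of 7 and Zg16 in 4 of 6, the exceptions being median centring (0.57) and the second brightest probe set (0.55). No member was 1.5-fold lower in any alternative. The signs of Ctrb1, Clps, Rnase1, Cela1 and Cela2a changed with the scaling, and that of Prss2 changed without _x_at and _s_at probe sets (0.08). No paired analysis was possible because each genotype has 1 array. The number of arrays limits every value.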

Other observations

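Some genes of the wider acinar list were at the edge of detection. Amy1, an amylase, was under the floor in the wild type (25.6) and just above it in the knockout (44.1). Reg3a, Reg3g, Gnmt, Aqp8, Chrm3, Gata4 and Tmed11 were under the floor on both arrays. Several members are neighbours in the reference annotation when only protein-coding genes are counted between them. Cela2a and Ctrc have 0 protein-coding genes between them and had log2 ratios of 0.07 and -0.44. Pnlip, Pnliprp1 and Pnliprp2 also follow each other with 0 protein-coding genes between, and the measured pair had log2 ratios of 0.16 and 0.31.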
